A study of Mus musculus with 6 samples.

Results

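Calcium crosses the surface membrane of heart cells through voltage-gated channels, the sodium-calcium exchanger and plasma membrane calcium pumps, and 9 genes of this system were followed in the hearts of mouse pups. They are Cacna1c, Cacna1d, Cacna1g, Cacna1h, Cacnb2, Cacna2d1, Slc8a1, Atp2b1 and Atp2b4, chosen by symbol from the 20121 genes in the count tables. All 9 passed the filter on low counts that kept 14877 genes for testing. RNA was sequenced from hearts at postnatal day 14 in pups of a mixed (ICR; C57BL/6) background. The 3 control pups carried the TRalphaAMI allele, a knock-in from which a dominant negative thyroid hormone receptor alpha is made only after Cre recombination, and no Cre. The 3 mutant pups were their littermates of genotype Myh6-Cre; TRalphaAMI, in which the Myh6 promoter drives Cre in heart muscle cells. A group with Cre alone was not part of the comparison, and an effect of Cre cannot be told apart from one of the mutant receptor.

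In a heart muscle cell the L-type channel opens during the action potential, and the calcium that enters makes ryanodine receptors release more from the sarcoplasmic reticulum. The exchanger then carries most of the entered calcium back out in return for sodium, while the plasma membrane pumps contribute little to this beat-to-beat extrusion. T-type channels open at more negative voltages, are abundant in fetal ventricle and pacemaker tissue, and decline in working ventricle after birth. Thyroid hormone is known to change the calcium handling of the heart during the same period, and the study asked which heart genes depend on it.

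Total counts per library ran from 43314706 to 62095277, and values below are CPM (each count scaled to a common library size) after TMM scaling, which corrects for library composition, unless another scale is named. Thra, the altered gene, stood at 66.8, 81.6 and 81.7 CPM in the control hearts and at 125, 142 and 143 CPM in the mutant hearts. Counts per gene do not separate the mutant from the wild-type receptor, and exons of Nr1d1 overlap Thra on the other strand, so this is a weak check of genotype. The mitochondrial genome took 22.4% to 24.9% of counts in control and 16.7% to 18.8% in mutant libraries. The scaling has a direct bearing on the calls: 2688 genes were higher and 2898 lower in mutant hearts, against 7479 and 1207 when library totals alone set the scale, a choice that moves the median log2 difference of all genes by 0.28. Adjusted p-values come from the quasi-likelihood test of edgeR, adjusted by the Benjamini-Hochberg method over all genes tested, and a gene passed at an adjusted p under 0.05. These p-values set the group difference against the spread between 3 pups per group, estimated with information shared across genes. Litter was not a term of the model.

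Of the 9 genes, 5 rose in mutant hearts (Cacna1c, Cacna1d, Cacna1g, Cacna1h and Slc8a1), 3 fell (Cacnb2, Cacna2d1 and Atp2b1) and Atp2b4 did not pass. Over all genes tested, 18.1% were higher and 19.5% lower by the same test, 37.5% together. On library totals 6 of the 9 were higher, Atp2b4 being the addition, and 1 was lower, against 50.3% and 8.11% of all genes. The control and mutant values in TMM-scaled CPM did not overlap for 8 of the 9, against 49.8% of all genes tested. In deposited RPKM, which hold no such scaling, Cacnb2 and Atp2b1 overlapped between groups and Atp2b4 did not. The median log2 difference was 0.32 over the 9 genes and -0.00 over all genes. All 4 channel pore genes were among the risers, and both auxiliary subunit genes were among those that fell. In bulk RNA, fewer cells of a type and less RNA per cell cannot be told apart.

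**Figure D1:**
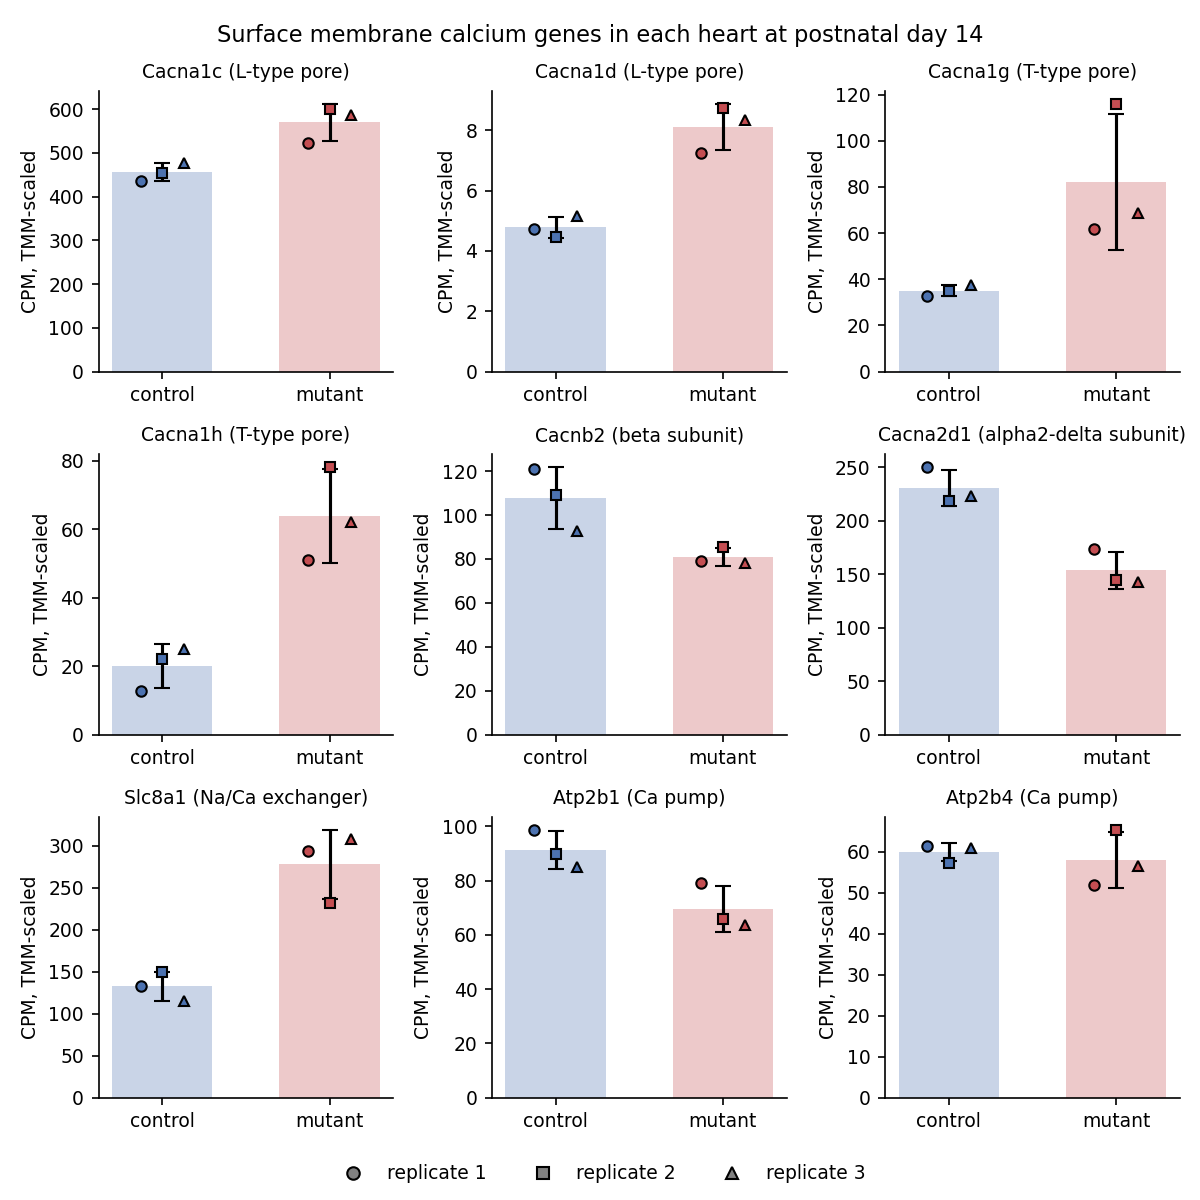
CPM in each heart for the 9 genes, on a linear axis starting at 0 in each panel, with 3 control and 3 mutant hearts and bars at the group means. The groups are separate in 8 panels and overlap for Atp2b4, and mutant replicate 2 stands well above the other mutant hearts for Cacna1g.

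**Figure D2:**
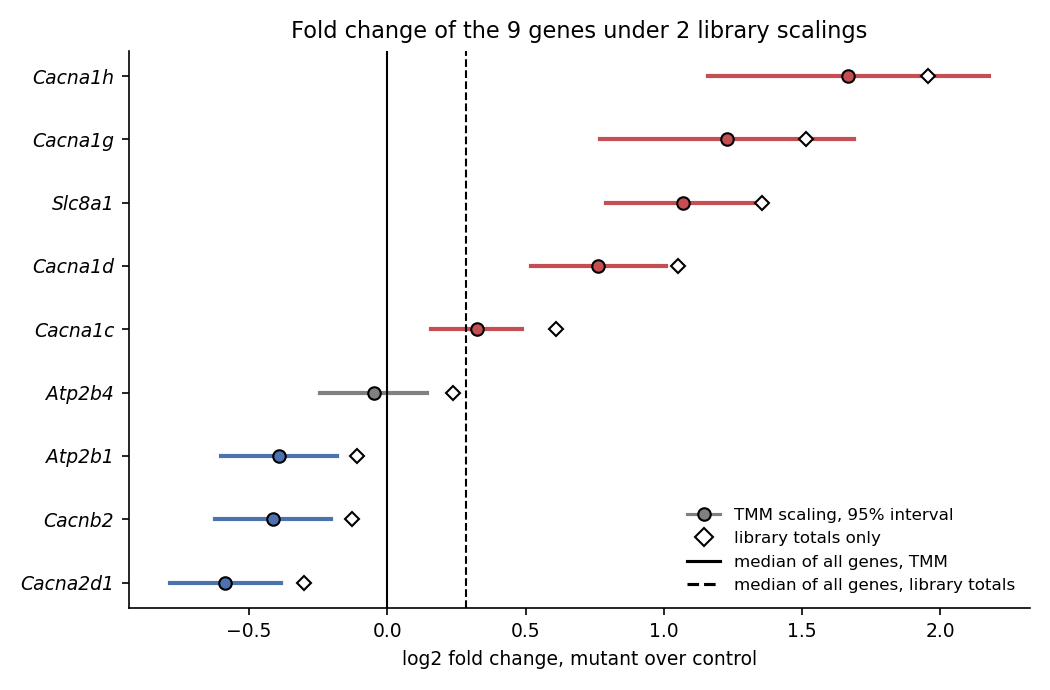
Log2 fold change of each of the 9 genes, mutant over control, with 95% confidence intervals from edgeR. The 5 risers run from 0.32 to 1.67, the 3 genes that fell from -0.39 to -0.58, and the interval of Atp2b4 includes 0.

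Promoter sequence is shown for Slc8a1, which rose, and Cacna2d1, which fell. Besides these, only Atp2b4, which did not pass, has a single promoter window. Cacna1g and Cacna1h, which rose more than Slc8a1, have no window in the set used here and were not searched. Each window holds the 250 bases before the RefSeq start in GRCm38.p6, 5′ to 3′ on the gene's strand. The Slc8a1 window lies at chr17:81738388-81738637 on the minus strand, and the Cacna2d1 window at chr5:15934441-15934690 on the plus strand. Capitals mark the GC box, GGGCGG read on either strand, a sequence bound by Sp1-type factors.
Slc8a1: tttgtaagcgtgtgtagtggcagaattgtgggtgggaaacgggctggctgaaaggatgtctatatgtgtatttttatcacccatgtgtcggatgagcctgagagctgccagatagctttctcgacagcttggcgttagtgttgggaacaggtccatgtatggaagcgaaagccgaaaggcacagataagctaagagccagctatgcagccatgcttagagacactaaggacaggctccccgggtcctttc
Cacna2d1: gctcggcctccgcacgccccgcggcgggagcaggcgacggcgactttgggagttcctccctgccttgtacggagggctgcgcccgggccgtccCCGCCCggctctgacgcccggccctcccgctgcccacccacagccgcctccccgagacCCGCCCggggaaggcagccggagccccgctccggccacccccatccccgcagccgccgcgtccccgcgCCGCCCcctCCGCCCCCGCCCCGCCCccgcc
The Cacna2d1 window holds 6 GC box matches, all on the strand opposite to the gene, with a GC content of 82.4% and 36 CpG pairs. Some of the matches lie next to each other or share a base. The Slc8a1 window holds none, with a GC content of 50.4% and 8 CpG pairs. Across the 12 windows that 7 of the 9 genes have in the table, 6 hold a GC box, against 32.7% of 32851 mouse windows of the same length. Those 6 include windows of the risers Cacna1c and Cacna1d, and of Cacnb2, Cacna2d1 and Atp2b1, which fell. The half-site AGGTCA, to which thyroid hormone receptors bind, was searched on both strands and is in 0 of the 12, against 14.0% of all windows. Its direct repeat spaced by 4 bases, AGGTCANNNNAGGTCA, is in 0 of the 12 and in 0.0152% of all windows. The TATA box TATAAA is in 1 of the 12 and in 12.4% of all. No match says only that these letters are not in these windows.

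The pore-forming subunits of the L-type channels come first. Cacna1c (mm10, chr6:118587240-119196418, minus strand) codes for Cav1.2, the main pore of the ventricular L-type channel. It measured 435, 455 and 477 CPM in the control hearts and 522, 601 and 586 CPM in the mutant hearts. Every mutant heart was above every control heart, by a small margin for mutant replicate 1. Cacna1c rose 1.25-fold, from 456 ± 20.8 to 570 ± 42.2 CPM (SD, n = 3), a log2 fold change of 0.32 ± 0.07 (SE) with a 95% interval from 0.16 to 0.49 (edgeR quasi-likelihood test, adjusted p = 0.0068).

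Cacna1d (chr14:30039939-30491455, minus strand) codes for Cav1.3, an L-type pore that opens at lower voltages and serves mainly in the sinoatrial node and atria. It was scarce, at 4.74, 4.46 and 5.15 CPM in the control hearts and 7.26, 8.74 and 8.34 CPM in the mutant hearts, from 186 to 453 counts per library. The mutant hearts were all higher than the controls. Cacna1d rose 1.70-fold, by 0.76 ± 0.11 on the log2 scale (edgeR quasi-likelihood test, adjusted p = 4.84e-04). Exons of Chdh on the other strand overlap 4.67% of its exon bases, and the library kit does not mark strand, so those reads cannot be assigned. The same holds for 7.32% of the exon bases of Cacnb2 and 1.62% of those of Cacna1h and of Slc8a1, and the overlapping genes had low counts or are not analysed here.

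The T-type pore genes had the largest fold changes among the 6 channel genes of the 9. Cacna1g (chr11:94408391-94474198, minus strand) codes for Cav3.1. It measured 32.8, 34.9 and 37.4 CPM in the control hearts and 61.6, 116 and 68.6 CPM in the mutant hearts. Control hearts lay close together, and mutant replicate 2 stood far above the other mutant hearts. Cacna1g rose 2.34-fold, with a log2 fold change of 1.23 ± 0.20 and a 95% interval from 0.77 to 1.69 (edgeR quasi-likelihood test, adjusted p = 0.00122), and by 0.89 with mutant replicate 2 left out.

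Cacna1h (chr17:25374285-25433783, minus strand) codes for Cav3.2, the T-type pore most abundant in fetal and hypertrophied ventricle. It measured 12.9, 22.1 and 25.1 CPM in the control hearts and 51.1, 78.2 and 62.2 CPM in the mutant hearts. Control replicate 1 was well below the other controls, and the lowest mutant heart was still above the highest control. Cacna1h rose 3.18-fold, the largest change of the 9 genes, with a log2 fold change of 1.67 ± 0.23 and a 95% interval from 1.16 to 2.17 (edgeR quasi-likelihood test, adjusted p = 3.52e-04). Within the mutant group, replicate 2 was the highest and replicate 1 the lowest for all 4 pore genes.

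The auxiliary subunits moved the other way. Cacnb2 (chr2:14603088-14987908, plus strand) codes for the main cardiac beta subunit, which brings the pore to the surface and sets its gating. It measured 121, 109 and 92.9 CPM in the control hearts and 79.2, 85.4 and 78.0 CPM in the mutant hearts. The groups did not overlap, with control replicate 3 nearest to the mutant hearts. Cacnb2 fell 1.33-fold, by 0.41 ± 0.09 on the log2 scale (edgeR quasi-likelihood test, adjusted p = 0.00685). Without TMM scaling the log2 difference of Cacnb2 was -0.13 (edgeR quasi-likelihood test, adjusted p = 0.264), and its deposited RPKM ranges overlapped, at 6.32 to 8.25 in control and 6.44 to 7.10 in mutant hearts.

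Cacna2d1 (chr5:15934691-16374511, plus strand) codes for the alpha2-delta-1 subunit, which lies outside the membrane, raises the current and is the binding site of gabapentin. It measured 250.3, 219 and 223 CPM in the control hearts and 174, 144 and 143 CPM in the mutant hearts. All 3 mutant hearts were below all 3 controls, mutant replicate 1 being the nearest to them. Cacna2d1 fell 1.5-fold, by 0.58 ± 0.09 on the log2 scale with a 95% interval from -0.79 to -0.38 (edgeR quasi-likelihood test, adjusted p = 7.53e-04). Of the 3 genes that fell, it was the one that also passed on library totals, at -0.30 (edgeR quasi-likelihood test, adjusted p = 0.0112).

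Slc8a1 (chr17:81373105-81738377, minus strand) codes for NCX1, the cardiac sodium-calcium exchanger. It measured 133, 149.7 and 115 CPM in the control hearts and 294, 231 and 309 CPM in the mutant hearts. The lowest mutant heart, replicate 2, was well above the highest control. Slc8a1 rose 2.10-fold, from 133 ± 17.5 to 278 ± 41.0 CPM (SD, n = 3), with a log2 fold change of 1.07 ± 0.12 and a 95% interval from 0.79 to 1.35 (edgeR quasi-likelihood test, adjusted p = 1.31e-04). Mutant replicate 2, the highest mutant heart for the 4 pore genes, was thus the lowest for the exchanger.

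The plasma membrane pumps come last. Atp2b1 (chr10:98914406-99026143, plus strand) codes for PMCA1, a calcium pump present in most cell types. It measured 98.7, 89.9 and 85.1 CPM in the control hearts and 79.0, 65.9 and 63.6 CPM in the mutant hearts, without overlap. Atp2b1 fell 1.31-fold, by 0.39 ± 0.09 on the log2 scale (edgeR quasi-likelihood test, adjusted p = 0.00868). On library totals its log2 difference was -0.11 (edgeR quasi-likelihood test, adjusted p = 0.303).

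Atp2b4 (chr1:133699457-133801041, minus strand) codes for PMCA4, a pump that sits in caveolae and is tied to nitric oxide signalling in heart muscle. It measured 61.5, 57.4 and 61.0 CPM in the control hearts and 52.0, 65.3 and 56.5 CPM in the mutant hearts, so the groups overlapped. Its log2 difference was -0.05 ± 0.09 with a 95% interval from -0.24 to 0.14 (edgeR quasi-likelihood test, adjusted p = 0.690), and on library totals it was 0.24 (edgeR quasi-likelihood test, adjusted p = 0.0454).

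Levels of different genes were compared per length, with the deposited RPKM. In control hearts the means were 40.7 for Slc8a1, 19.4 for Cacna1c, 16.7 for Cacna2d1, 7.34 for Cacnb2, 5.40 for Atp2b1, 4.41 for Atp2b4, 3.11 for Cacna1g, 1.85 for Cacna1h and 0.466 for Cacna1d. No neighbours in that order overlapped over the 3 control hearts. In mutant hearts the means were 104 for Slc8a1, 29.5 for Cacna1c, 13.6 for Cacna2d1, 8.89 for Cacna1g, 7.18 for Cacna1h, 6.70 for Cacnb2, 5.19 for Atp2b4, 5.0 for Atp2b1 and 0.964 for Cacna1d. Both T-type genes thus had a higher mean than Cacnb2 and both pumps in mutant hearts, where they were below all of them in controls. Among neighbours in that order, the mutant ranges overlapped between Cacna1g and Cacna1h, between Cacna1h and Cacnb2, and between Atp2b4 and Atp2b1. Beyond neighbours, the mutant range of Cacna1g (6.54 to 12.6) overlapped that of Cacnb2 (6.44 to 7.10). That of Cacna1h (5.62 to 8.81) overlapped that of Atp2b4 (4.56 to 5.86).

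The place of Slc8a1 at the top rests on the gene length behind its RPKM. That length is 2951 bases, or 15.7% of its 18807 exon bases in GENCODE M21, while for 89.4% of all genes the length is within 2% of the exon bases. If its counts cover all exon bases, Slc8a1 would stand at 6.38 RPKM in control and 16.3 RPKM in mutant hearts, below Cacna1c in both. If they cover only the 2951 bases, those values are too low and the deposited RPKM hold. Cacna1d is at 73.7% by the same measure, and the other 7 genes are within the 2%. Which exons were counted is not given in the sources used here, and dividing by another length leaves a gene's own fold change as it is.

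Ratios within a heart do not depend on how libraries are scaled, and 8 were compared. T-type genes made up 17.8%, 20.6% and 21.4% of the RPKM of the 4 pore genes in control hearts and 30.8%, 39.9% and 31.5% in mutant hearts. The T-type share was thus higher in every mutant heart, by 14.1 percentage points (19.9% ± 1.89 against 34.1% ± 5.05, SD, n = 3, exact two-sided permutation test, p = 0.10). A p of 0.10 is the smallest that 3 against 3 hearts allow, and it becomes 0.114 after Benjamini-Hochberg adjustment over the 8 ratios. Cacna1c made up 78.2% ± 1.80 of the pore RPKM in control hearts against 63.9% ± 4.92 in mutant ones (SD, n = 3).

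Within the T-type pair, the Cacna1h share was 29.0%, 39.7% and 41.0% in control and 46.2%, 41.2% and 48.5% in mutant hearts, barely separate. Within the L-type pair, the Cacna1d share was 2.35% ± 0.133 in control hearts against 3.16% ± 0.066 in mutant ones (SD, n = 3), so Cacna1c made up nearly all L-type pore RNA in both groups. Both differences had an exact permutation p of 0.10 and an adjusted p of 0.114.

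Set against the Cacna1c pore, both auxiliary subunits were lower. The ratio of Cacnb2 to Cacna1c was 0.446, 0.385 and 0.312 in control and 0.243, 0.227 and 0.213 in mutant hearts, 1.66-fold lower by geometric means, as for the folds of the other ratios. The ratio of Cacna2d1 to Cacna1c was 0.982, 0.822 and 0.797 in control and 0.568, 0.410 and 0.416 in mutant hearts, 1.88-fold lower. Neither ratio overlapped between groups, each with an exact permutation p of 0.10 and an adjusted p of 0.114. The Atp2b1 share of both pumps overlapped between groups, at 52.9% to 56.4% in control and 44.8% to 55.0% in mutant hearts (exact permutation test, p = 0.20, adjusted 0.20).

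The remaining ratios set the surface genes against the sarcoplasmic reticulum. Slc8a1 stood against Atp2a2, which codes for the reticulum's calcium pump SERCA2, at 0.0201, 0.0211 and 0.0179 in control and 0.149, 0.117 and 0.151 in mutant hearts, a 7.01-fold higher geometric mean. The levels of this ratio rest on the short Slc8a1 length behind the deposited RPKM, and its fold does not. Cacna1c stood against Ryr2, the ryanodine receptor, at 0.234, 0.223 and 0.276 in control and 0.571, 0.686 and 0.685 in mutant hearts, a 2.65-fold higher geometric mean. Both ratios were separate between groups, with an exact permutation p of 0.10 and an adjusted p of 0.114. In CPM, Atp2a2 fell from 13881 to 4142 and Ryr2 from 2547 to 1198, so most of the rise in the exchanger ratio lay in its denominator.

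**Figure D3:**
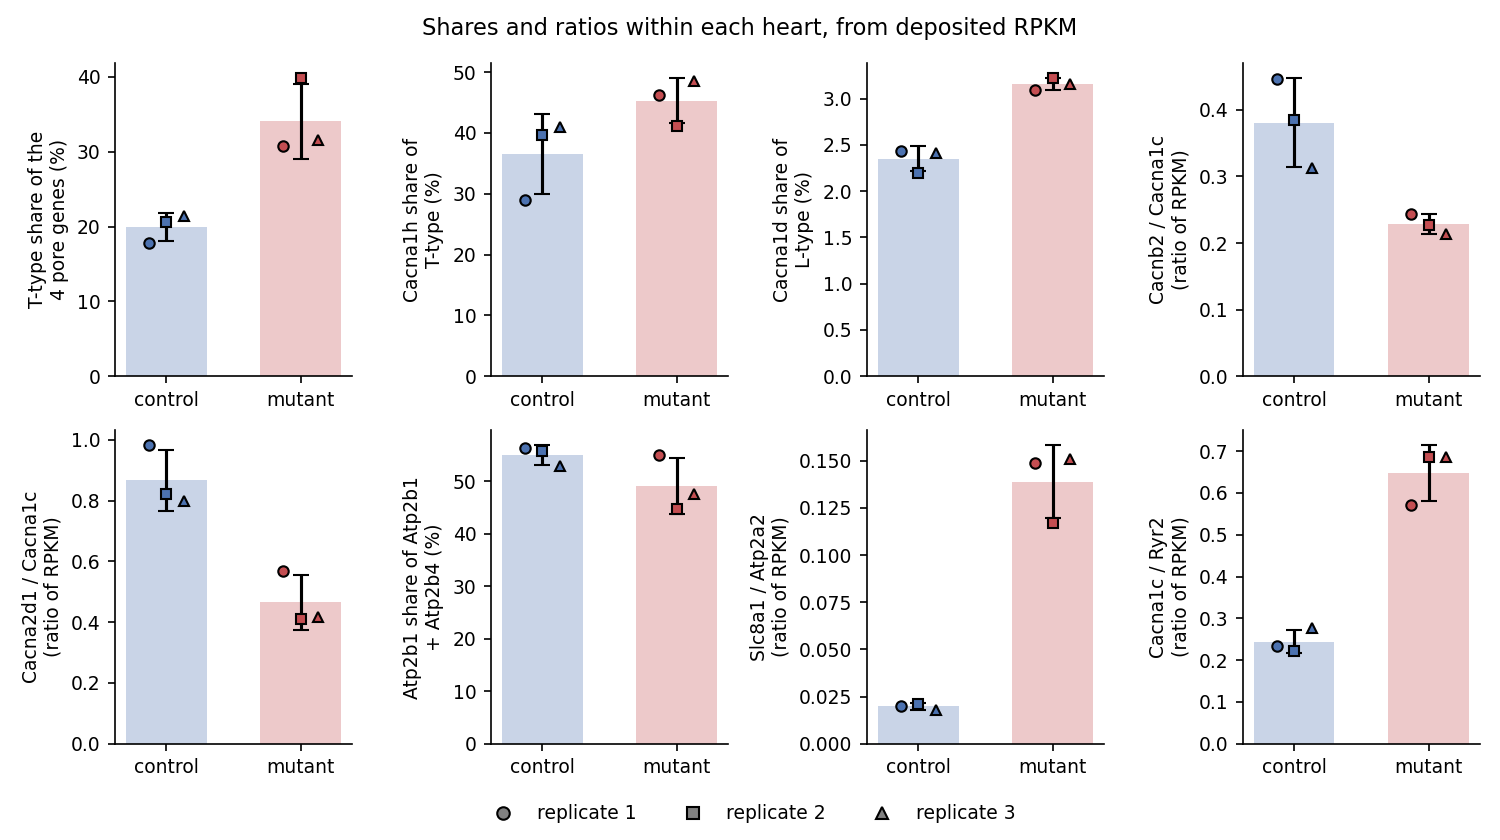
Within-heart ratios of deposited RPKM in each of the 3 control and 3 mutant hearts, with bars at the group means. The groups are separate in 7 of the 8 ratios and overlap in the Atp2b1 share of both pumps.

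Other genes of the pathway were read from 5 lists, of which 72 genes were tested, and 16 rose and 22 fell (edgeR quasi-likelihood test). The shares over all genes, to be set beside the counts of each list, were 18.1% higher and 19.5% lower. On library totals they were 50.3% and 8.11%. Of 10 tested genes of other voltage-gated channel subunits, 2 rose, 4 fell and 4 did not pass, with a median log2 difference of 0.04. Cacnb1, the beta subunit of skeletal muscle channels, rose from 8.43 to 15.9 CPM, the opposite of Cacnb2, and Cacng6, a gamma subunit, rose from 0.719 to 1.42 CPM. Cacna1s, the skeletal L-type pore, fell from 2.05 to 0.646 CPM, with 19.98% of its exon bases overlapped by a gene on the other strand. Cacna2d3, another alpha2-delta subunit, had 29, 45 and 32 counts in the control and 0, 0 and 2 counts in the mutant hearts, 57.1-fold lower with a counting interval from 15.4 to 477. The count of 4 that fell became 2 when control replicate 2, mutant replicate 1 or mutant replicate 2 was left out, and 2 on library totals.

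Of 11 other exchanger and pump genes, 3 rose, 3 fell and 5 did not pass, with a median of 0.08. The risers were scarce isoforms better known from brain. Slc8a2, which codes for NCX2, rose from 1.06 to 3.39 CPM, and Slc24a2, a potassium-dependent exchanger, rose from 2.16 to 6.10 CPM. Atp2b3, which codes for PMCA3, had 3, 4 and 4 counts in the control and 14, 32 and 26 counts in the mutant hearts, 6.08-fold higher with a counting interval from 3.20 to 12.7. Bsg, which codes for basigin, a partner of plasma membrane pumps and lactate transporters, fell from 1366 ± 79.2 to 426 ± 4.26 CPM (SD, n = 3).

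Of 23 tested regulators of surface calcium transport, 5 rose, 6 fell and 12 did not pass, with a median of 0.00. Camk2a, a calcium-activated kinase, rose from 58.4 to 94.5 CPM, and Nedd4l, a ubiquitin ligase that acts on channels, rose from 40.6 to 60.8 CPM. Ank2, the ankyrin that anchors the exchanger, fell from 261 to 172 CPM, opposite in direction to Slc8a1. The 5 that rose became 3 when control replicate 2, mutant replicate 2 or mutant replicate 3 was left out, while on library totals 11 rose and 2 fell.

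Of 17 genes of store-operated and other calcium entry, 5 rose, 3 fell and 9 did not pass, with a median of 0.03. P2rx4, an ATP-gated channel, rose from 19.7 to 24.7 CPM. Trpv4, a stretch- and heat-sensitive channel, fell from 7.19 to 3.62 CPM. Orai1, the pore of store-operated entry, fell from 13.1 to 9.46 CPM, and was at -0.18 on the log2 scale with library totals (edgeR quasi-likelihood test, adjusted p = 0.129). The 5 that rose became 2 when control replicate 2, control replicate 3, mutant replicate 1 or mutant replicate 2 was left out, and 10 on library totals.

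Of 11 tested sarcoplasmic reticulum genes, 6 fell, 1 rose and 4 did not pass, with a median of -0.35. Beside Atp2a2 and Ryr2, Hrc, a calcium-binding protein of the reticulum, fell from 671 to 224 CPM, and Jph2, which ties the reticulum to the surface membrane, fell from 522 to 315 CPM. The riser, named after its value was seen, was Fkbp1b, a ryanodine receptor partner, from 0.806 to 1.42 CPM. On library totals 4 genes of this list rose.

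**Figure D4:**
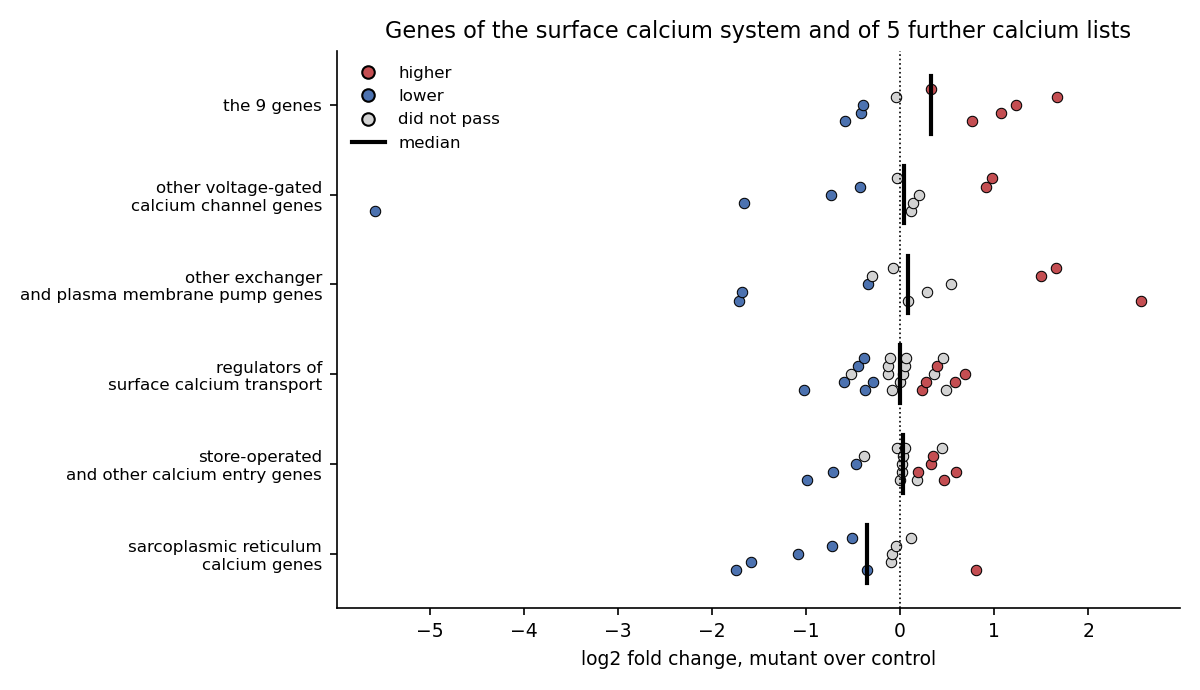
Log2 fold change of each tested gene, mutant over control, for the 9 genes and the 5 other calcium lists, with the median of each list marked. Red points are higher and blue points lower at an adjusted p under 0.05, and light grey points did not pass. The medians run from -0.35 for the sarcoplasmic reticulum to 0.32 for the 9 genes.

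Marker genes of the cells in the tissue moved as well, and their part in the results was not tested. Their counts stand beside 18.1% higher and 19.5% lower over all genes tested. Of 10 heart muscle markers, which include Ryr2, 0 rose and 5 fell, with summed levels of 48885 to 54592 CPM in control and 38535 to 40177 CPM in mutant hearts. The largest fall was that of Tpm1, from 10653 to 4922 CPM, while Tnnt2, Ttn, Mybpc3, Actn2 and Csrp3 did not pass. Of 10 smooth muscle and pericyte markers, which mark cells that also carry L- and T-type channels, 2 rose and 3 fell, and their sums were 2485 to 2712 CPM in control and 2290 to 2379 CPM in mutant hearts. Of 10 fibroblast markers 3 rose and 0 fell, with sums of 2776 to 3150 CPM in control and 3173 to 3528 CPM in mutant hearts. Endothelial markers fell in 6 of 10, from 1789 to 1914 CPM down to 1499 to 1635 CPM, and macrophage markers in 8 of 10, from 161 to 178 CPM down to 111 to 116 CPM. Of 8 tested conduction markers 3 rose and 2 fell, with sums of 160 to 176 CPM in control and 169 to 203 CPM in mutant hearts. Of 4 tested nerve markers 0 rose and 1 fell, and of 6 tested red blood cell markers 0 rose and 0 fell. The atrial list had 4 of 7 tested genes higher (Nppa, Bmp10, Dkk3 and Myl4) and 1 lower, with sums of 102 to 112 CPM in control and 352 to 414 CPM in mutant hearts. Nppa, a natriuretic peptide gene with 61.5% of its exon bases overlapped on the other strand, went from 53.7 to 322 CPM. Dkk3 went from 11.5 to 24.3 CPM and Myl4 from 2.29 to 3.22 CPM, and Bmp10 had 2 counts over the control and 73 over the mutant hearts. Myl7, at 3 to 22 counts, Sln, at 0 to 8 counts, and Dhrs9, at 0 to 2 counts, were low in every library of both groups. Of the rest of the list, Stard10 fell from 8.15 to 6.37 CPM. Nr2f2, at 24.1 CPM in control and 20.7 CPM in mutant hearts, and Nr2f1, at 6.20 and 6.29 CPM, did not pass.

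The genes whose pattern over the 6 hearts was most like that of Slc8a1, by Pearson correlation of log2 CPM among 12046 genes, were Enoph1 (r = 0.9996), Txndc12, Decr2, Rabl3 and B3galt6 (r from 0.993 to 0.995). Their log2 differences were smaller, from 0.26 for Enoph1 to 0.58 for B3galt6. The hearts in each group are shared by all these genes, and with 6 hearts in 2 groups the group difference alone can give a high correlation.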

How the data were processed

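For each heart the authors deposited raw counts per Ensembl gene identifier, in whole numbers, and RPKM. The tools named per the submitters' processing notes are STAR 2.5.2b, featureCounts 1.5.1 and cutadapt 1.9, with mm10 as the build. The annotation release, strand setting and treatment of multi-mapping reads were not given in the sources used here. Deposited RPKM are the authors' counts divided by a gene length and the library total, as the values themselves show, so they hold no correction for library composition.

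Genes were named by GENCODE M21 (20081 of 20121 identifiers). Counts were filtered with filterByExpr, scaled by TMM and tested with edgeR 4.0.16 in R 4.3.3, group being the only term. The test was also run on counts simulated from the means and spread of these data, with an outcome not reported here. Ratios used deposited RPKM and an exact permutation test. Counting intervals cover counting error only. Alternatives were DESeq2 1.42.0, other scalings, no filter, limma 3.58.1 on log2(RPKM + 1) or log2(RPKM + 0.1), a replicate block, and leaving out each heart. No 2 libraries agreed within sampling noise. Promoter windows are from RefSeq, build GRCm38.p6.

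The 9 genes and all lists were chosen with earlier results of these data known. From each calcium list up to 4 genes past the threshold with the smallest adjusted p are named, together with Atp2a2, Ryr2, Thra and the 5 genes with the highest correlation with Slc8a1, the gene of highest mean RPKM, among genes with a symbol and at least 1 CPM on average. Some genes that this rule names are not reported here.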

Additional observations from a re-analysis of the deposited data

How the results depend on the processing

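Of the 9 genes, the calls for Cacna1c, Cacna1d, Cacna1g, Cacna1h, Slc8a1 and Cacna2d1 kept their direction and passed in all 14 alternatives. The scale of the libraries mattered most. On library totals, then limma on log2(RPKM + 1), on log2(RPKM + 0.1) and on log2(RPKM + 1) with no filter, genes higher in mutant hearts numbered 7479, 7349, 7391 and 6916 and genes lower 1207, 1215, 1221 and 1170. Of the 9 genes, 1 fell in each of these, Cacna2d1. The 5 other calcium lists together then had 33, 31, 31 and 31 genes higher and 13, 13, 13 and 10 lower. Cacnb2 and Atp2b1 no longer passed in any of the 4. Atp2b4 changed sign in them, to 0.24, 0.19, 0.22 and 0.19 on the log2 scale, and ran from -0.15 to 0.02 with 1 heart left out, the upper end being 0.0219 without mutant replicate 1. Leaving out each heart gave 2039 to 2661 genes higher and 2234 to 2856 lower.

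The correlations of deviations between same-numbered control and mutant hearts were 0.155, -0.05 and 0.096. Between control and mutant hearts of different numbers they ran from -0.175 to 0.091. These values do not settle whether replicate numbers pair the hearts. With the replicate number as a block, 3090 genes were higher and 3229 lower, and the 9 genes had the same 5 higher and 3 lower calls. The exact sign permutation over same-numbered hearts cannot go below p = 0.25. All 8 ratios kept their direction with each heart left out. The block could not change a direction, since it uses the same difference of group means. With GENCODE exon lengths the directions also held, but a fixed length leaves the fold of a gene-to-gene ratio as it is. Counts under the filter limit what can be said of scarce channel genes.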

Other observations

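Channel genes whose counts were under the filter were not tested. Summed over the 3 hearts of each group, Cacna1b, the N-type pore of nerve endings, had 27 counts in control and 22 in mutant hearts. Cacna1i, the T-type pore of the brain, had 8 and 12 counts, far under the other T-type genes, Cacna1g and Cacna1h. Cacng4 had 25 and 26 counts, Cacng1 had 11 and 11, Cacna2d4 had 4 and 4, and Cacna1f, the L-type pore of the retina, had 2 and 3.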
